A study of Homo sapiens with 6 samples.

Results

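The KDM5 and KDM4 histone demethylases were described here by 7 genes, KDM5A, KDM5B, KDM5C, KDM4A, KDM4B, KDM4C and KDM4D, of 18417 genes measured. They were taken as the probe sets with exactly 1 gene symbol that named a member, and each of the 7 genes had 1 such probe set. The study hybridised RNA of the human melanoma line WM164, which carries mutated BRAF and comes from a metastasis in a lymph node, to 6 whole-transcript arrays. Of these, 3 were of cells given the vehicle DMSO (Parent) and 3 of induced drug tolerant cells (IDTC), which had spent 16 days in 500 nM PLX4032. PLX4032 is vemurafenib, which inhibits mutant BRAF, and the drug medium was renewed every 3 days. Both groups grew in RPMI with glutamine and 5% serum. The labels give no length for the DMSO treatment, so drug and time in culture cannot be told apart. All samples are of 1 cell line, and nothing says whether the triplicate cultures came from separate experiments. A p-value therefore sets the difference between groups only against spread within groups, which may be technical.

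Methyl groups on histone H3 are added by methyltransferases ("writers"), bound by reader proteins and removed by demethylases ("erasers"). The KDM5 enzymes (JARID1 family) take methyl groups off H3K4, a mark of active promoters, and the KDM4 enzymes (JMJD2 family) take them off H3K9, a mark of silent chromatin, and H3K36, a mark of transcribed gene bodies. Both families carry a JmjC domain that uses iron, oxygen and 2-oxoglutarate. KDM5B (JARID1B) is known in melanoma as a marker of slow-cycling cells, and KDM5A has been studied in drug-tolerant persister cells of other cancers, which is the question the comparison of IDTC with Parent bears on.

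The values are log2 expression as deposited, and differences are IDTC minus Parent on the log2 scale ± their standard error. Rose and fell are used only where the limma p, adjusted by Benjamini-Hochberg for all genes tested, was under 0.05. The limma fit draws the variance of each gene towards that of all genes. Standard errors and p-values therefore do not rest on a gene's own spread alone. No detection call came with the values, so a dim gene may be near background, and the number of arrays limits the precision. Over all genes the correlation was 0.995 to 0.998 within a group and 0.953 to 0.957 between groups. The interquartile range of the values was 2.90 on IDTC 3 and 3.07 to 3.23 on the other arrays. All 9 measured genes of a MAPK output list fell, among them DUSP6, a phosphatase of ERK, by 2.44 ± 0.06. Of 10 melanocyte markers 9 were measured, of which 7 rose, 1 fell (S100B, -0.85) and 1 was not called (MITF, -0.04), and the melanosome protein gene PMEL stood at 12.52 ± 0.02 (SD, n = 3) in Parent and 13.40 ± 0.04 in IDTC. Among the keratinocyte and endothelial markers limma called 0 of 5 each (0 also at an unadjusted p under 0.05). Of 6 fibroblast markers 1 rose and 2 fell, with summed log2 values of 35.4 to 36.1 in Parent and 34.8 to 35.0 in IDTC. Of 6 leukocyte markers 1 rose, with sums of 28.3 to 29.3 and 28.7 to 30.0. The part of these markers in the results was not tested.

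KDM4A, KDM5A, KDM5B and KDM4D rose in the drug-tolerant cells, KDM5C and KDM4B fell by small amounts, and KDM4C was not called. The background was high, since 46.6% of all genes were called, 21.7% as higher and 24.9% as lower. Without the dimmest 40% of genes, a filter that all 7 members passed, 69.2% were called and 29.6% were higher. The 6 of 7 members called are to be read against that background. The groups did not overlap for 6 of the 7, against 54.1% of all genes, dim ones included. That share was not taken without the dimmest genes. KDM4A was the only member called with a change of 2-fold or more, which 9.21% of all genes reached, 3.81% as higher. The median difference was 0.38 over the members and -0.01 over all genes.

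**Figure D1:**
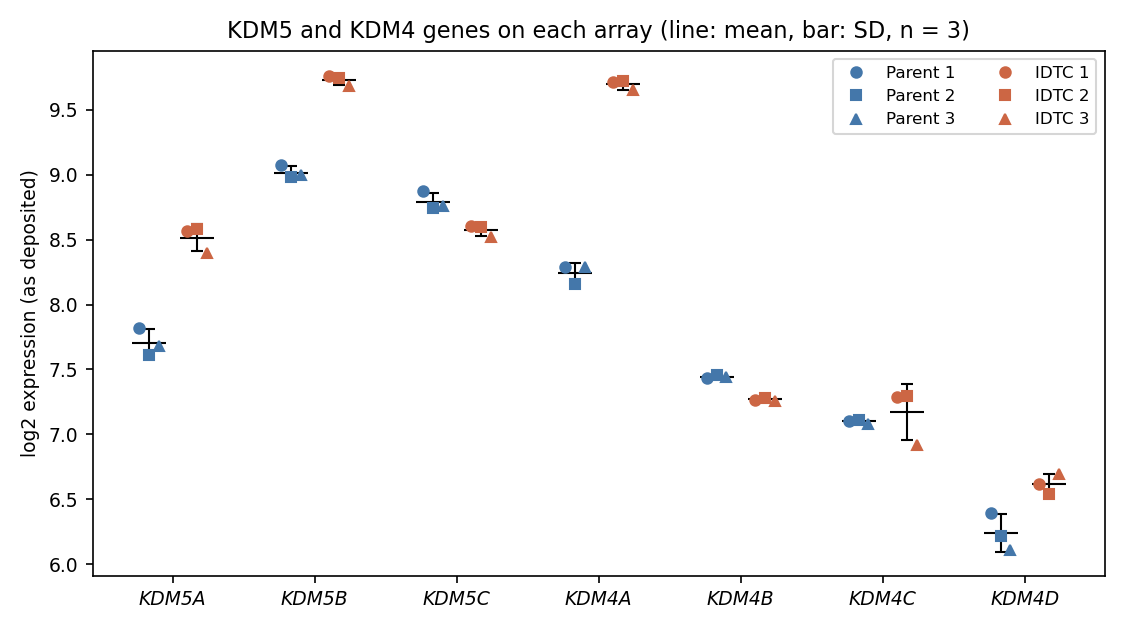
Log2 expression (vertical axis) of the 7 genes on each of the 6 arrays; marks are single arrays, horizontal lines group means and bars the SD of 3 arrays. KDM4A, KDM5A and KDM5B lie higher on every IDTC array, KDM5C and KDM4B slightly lower, and the IDTC arrays of KDM4C fall on both sides of the Parent arrays. Heights of different genes come from different probe sets and are not to be compared.

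Within the KDM5 family, 2 members rose and 1 fell. KDM5A, first known as a protein bound by RB, read 7.82, 7.61 and 7.68 on the Parent arrays and 8.57, 8.58 and 8.40 on the IDTC arrays. Every IDTC array lay above every Parent array. The mean went from 7.71 ± 0.11 (SD, n = 3) to 8.52 ± 0.10, a difference of 0.81 ± 0.08 (1.75-fold, limma adjusted p = 0.00011, 95% confidence interval 0.62 to 1.00), and 5.76% of all genes had a higher difference.

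KDM5B, the family member known from slow-cycling melanoma cells, read 9.07, 8.98 and 8.99 on the Parent arrays and 9.76, 9.75 and 9.68 on the IDTC arrays. The groups were again apart, and the spread within each was the narrowest of the KDM5 genes. The mean went from 9.02 ± 0.05 (SD, n = 3) to 9.73 ± 0.04, a difference of 0.71 ± 0.06 (1.64-fold, limma adjusted p = 3.17e-05, 95% confidence interval 0.58 to 0.84), and 7.08% of all genes had a higher difference.

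KDM5C, an X-linked H3K4 demethylase whose mutations cause intellectual disability, went the other way. It read 8.87, 8.75 and 8.76 on the Parent arrays and 8.61, 8.60 and 8.52 on the IDTC arrays, so the groups did not overlap but stood close. It fell from 8.79 ± 0.07 (SD, n = 3) to 8.58 ± 0.05, a difference of -0.21 ± 0.06 (1.16-fold, limma adjusted p = 0.0213, 95% confidence interval -0.36 to -0.07). A difference of this size or larger is common here, since 50.2% of all genes had a smaller one in absolute terms. The call was lost after re-centring the arrays on their medians (-0.15, adjusted p = 0.0794), after quantile normalization (-0.12, adjusted p = 0.0805) and without Parent 1 (-0.17, adjusted p = 0.0574).

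Among the KDM4 genes, KDM4A stood out in size and KDM4D rose by less. KDM4A removes methyl groups from both H3K9 and H3K36 and reads histones through Tudor domains. It read 8.29, 8.16 and 8.29 on the Parent arrays and 9.72, 9.72 and 9.65 on the IDTC arrays. The lowest IDTC array was more than 1 log2 unit above the highest Parent array. The mean went from 8.25 ± 0.07 (SD, n = 3) to 9.70 ± 0.04, a difference of 1.45 ± 0.06 (2.73-fold, limma adjusted p = 1.88e-06, 95% confidence interval 1.31 to 1.59). Of all genes, 1.53% had a higher difference.

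KDM4D is a shorter enzyme that lacks the PHD and Tudor domains of KDM4A, KDM4B and KDM4C and acts on H3K9. It read 6.39, 6.22 and 6.11 on the Parent arrays and 6.62, 6.54 and 6.70 on the IDTC arrays, the widest Parent spread of the 7 genes, with no overlap. It rose from 6.24 ± 0.14 (SD, n = 3) to 6.62 ± 0.08, a difference of 0.38 ± 0.09 (1.30-fold, limma adjusted p = 0.00797, 95% confidence interval 0.18 to 0.58). Its probe set had a mean below that of 58.6% of genes, and background signal may understate its fold. KDM4D has close paralogues, as KDM5C does, and signal shared between paralogues was not tested.

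KDM4B, a coactivator of steroid hormone receptors, read 7.44, 7.45 and 7.44 on the Parent arrays and 7.27, 7.28 and 7.26 on the IDTC arrays. Its arrays agreed more closely than those of any other member, so a small difference still left the groups apart. It fell from 7.45 ± 0.01 (SD, n = 3) to 7.27 ± 0.01, a difference of -0.17 ± 0.05 (1.13-fold, limma adjusted p = 0.0200, 95% confidence interval -0.29 to -0.06). The standard error exceeds both SDs because limma draws the variance of a gene towards that of all genes. In absolute size 44.1% of all genes moved less. The call was lost after re-centring (-0.11, adjusted p = 0.115), after quantile normalization (-0.12, adjusted p = 0.0772), without Parent 2 (-0.17, adjusted p = 0.0659) and without Parent 3 (-0.17, adjusted p = 0.0603).

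KDM4C, which like KDM4A acts on H3K9 and H3K36, was the member on which the IDTC arrays disagreed. It read 7.10, 7.11 and 7.08 on the Parent arrays and 7.29, 7.30 and 6.92 on the IDTC arrays. IDTC 1 and IDTC 2 lay above all Parent arrays and IDTC 3 below them. The difference was 0.07 ± 0.10 (limma adjusted p = 0.629, 95% confidence interval -0.18 to 0.32), from 7.10 ± 0.02 (SD, n = 3) to 7.17 ± 0.22. Without IDTC 3 it was 0.19 ± 0.05 and was called (adjusted p = 0.0169). IDTC 3 was the lowest of the IDTC arrays for 6 of the 7 members and for 42.7% of all genes, KDM4D being the member where it was the highest.

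**Figure D2:**
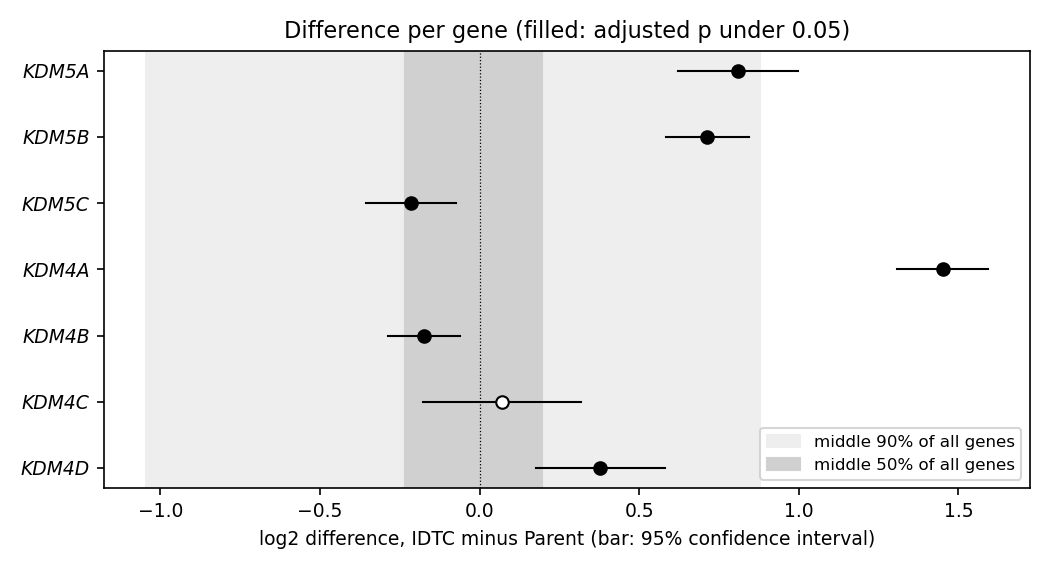
Log2 difference IDTC minus Parent (horizontal axis) of each gene with its 95% confidence interval; filled points were called at an adjusted p under 0.05, and the bands hold the middle 50% (-0.23 to 0.19) and the middle 90% (-1.04 to 0.88) of all genes. Only KDM4A lies beyond the middle 90%, at 1.45, and KDM5C, KDM4B and KDM4C lie within the middle 50%.

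The members of each family were also compared with each other within arrays, since the difference between a pair of genes on one array is free of any shift common to the array. Of 9 pairs within the families, 6 had groups that did not overlap. Of all single genes 54.1% had groups without overlap, and the share among other pairs of genes was not taken. Pairs that share a gene are not independent. KDM5B minus KDM5C was 0.20, 0.24 and 0.24 on the Parent arrays and 1.15, 1.15 and 1.16 on the IDTC arrays. KDM5B therefore gained 0.93 log2 on KDM5C, and KDM5A gained 1.03 on it in the same way. KDM5A minus KDM5B moved by 0.10 with overlapping groups (-1.25, -1.37 and -1.31 in Parent, -1.19, -1.17 and -1.28 in IDTC). These values show unequal change of the genes and say nothing about their relative levels. In the KDM4 family, KDM4A gained 1.62 on KDM4B, 1.38 on KDM4C and 1.07 on KDM4D, and KDM4D gained on KDM4B, whose difference from it moved by -0.55. KDM4B minus KDM4C (-0.24) and KDM4C minus KDM4D (-0.31) had overlapping groups. The 2-sided exact permutation test gave p = 0.1 for each of the 6 pairs without overlap, the smallest that 3 arrays against 3 allow, and p = 0.2 for the other 3 (0.15 and 0.2 after Benjamini-Hochberg adjustment over the 9 pairs), so none could pass 0.05.

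**Figure D3:**
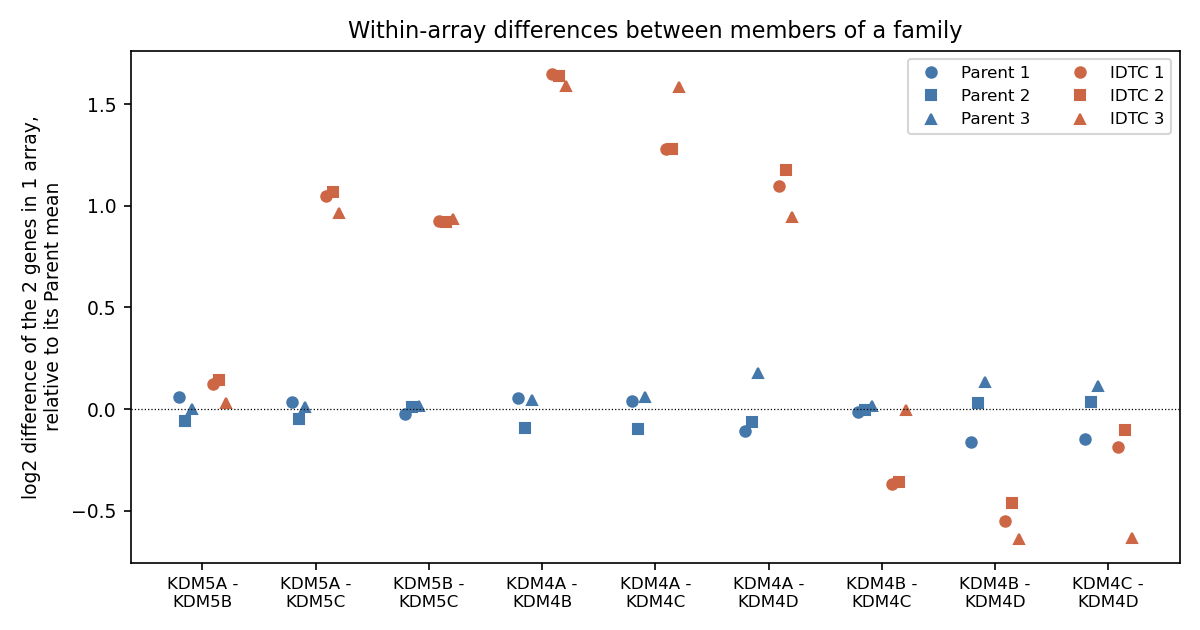
Log2 difference of a pair of genes on 1 array, shown relative to the Parent mean of that pair (vertical axis), for the 9 pairs within a family; marks are single arrays. The IDTC arrays stand about 1 log2 unit or more above the Parent arrays for KDM5A and KDM5B against KDM5C (1.03 and 0.93) and for KDM4A against each other KDM4 gene (1.07 to 1.62).

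The promoters of KDM4A, which rose most, and of KDM4B and KDM4C, which did not rise, are shown. KDM4B and KDM4C are known targets of the hypoxia-inducible factors, and KDM5B, which rose, has also been described as hypoxia-induced. Of the hypoxia genes described further on, 10 fell and 3 rose, EPAS1 among the latter. Whether hypoxia-inducible factors had a part in the differences was not tested. The sequences are the 250 bases before the start site from RefSeq (GRCh38.p14), on the gene's strand, at chr1:43649899-43650148 for KDM4A, chr19:4968863-4969112 for KDM4B and chr9:6757723-6757972 for KDM4C, all on the plus strand. Capitals mark ACGTG on either strand, a form of the core letters bound by hypoxia-inducible factors. The form GCGTG was not searched for and is not marked, though it can be read in each of the printed windows. The capitals therefore do not set KDM4A apart for the full core. Each ACGTG here lay in the palindrome CACGTG, the E-box read by MITF and MYC among others.
KDM4A: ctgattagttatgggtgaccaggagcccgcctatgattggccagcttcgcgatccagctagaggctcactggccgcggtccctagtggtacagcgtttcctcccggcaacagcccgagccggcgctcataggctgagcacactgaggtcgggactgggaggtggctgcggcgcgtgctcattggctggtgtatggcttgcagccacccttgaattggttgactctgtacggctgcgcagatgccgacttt
KDM4B: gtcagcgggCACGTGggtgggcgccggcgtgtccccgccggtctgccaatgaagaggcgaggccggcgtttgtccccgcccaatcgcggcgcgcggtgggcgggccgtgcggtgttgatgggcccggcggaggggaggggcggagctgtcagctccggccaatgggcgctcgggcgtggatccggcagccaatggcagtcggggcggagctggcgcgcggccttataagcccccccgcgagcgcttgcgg
KDM4C: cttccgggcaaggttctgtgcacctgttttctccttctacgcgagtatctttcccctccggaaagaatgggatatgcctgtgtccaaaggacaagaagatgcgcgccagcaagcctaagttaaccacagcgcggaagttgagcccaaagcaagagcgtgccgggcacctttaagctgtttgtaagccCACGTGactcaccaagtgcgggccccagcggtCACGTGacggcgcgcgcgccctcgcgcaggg
KDM4B held CACGTG once, 241 bases before the start, and KDM4C held it at 63 and 31 bases before the start, whereas KDM4A, KDM4D and the KDM5 genes had none. Of 35116 promoter windows of this length, 6.34% held CACGTG and 18.5% held ACGTG, which every CACGTG contains on both strands. CCGGAA, the core bound by ETS factors, was found on either strand at 2 places in KDM4C and at 1 place each in KDM4D and KDM5C, and in 14.5% of all windows. The E-box CATGTG (9.42% of windows), the E2F letters TTTGGCGC (0.55%) and the cyclic AMP response element TGACGTCA (1.65%) matched none of the 7. A match is a run of letters and no shown binding. Of the factors that read these letters only RNA was measured here, not protein or binding.

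Genes that write, erase or read the same marks were counted from lists chosen with earlier results of these data known. Their counts are to be read against the 46.6% of all genes that were called, 21.7% higher and 24.9% lower. Without the dimmest 40% of genes 69.2% were called, 3276 of 11050 as higher and 4371 as lower. Of 16 H3K4 writers and their complex subunits, 3 rose, 8 fell and 5 were not called (68.75% called, median -0.15). WDR5 (-1.08 ± 0.05), a scaffold of the KMT2 complexes, PAXIP1 (-0.89 ± 0.06) and HCFC1 (-0.62 ± 0.06) fell, and ASH2L, a core subunit of the same complexes, rose by 0.59 ± 0.05. The KMT2 enzymes themselves mostly had small differences, and KMT2C (0.56) was the only enzyme of the list that rose, while SETD1A (-0.30) fell. Of the 5 H3K4 erasers of the LSD1 type and their corepressors, KDM1B (0.57 ± 0.05) and RCOR3 (0.62 ± 0.06) rose, RCOR1 (-0.39 ± 0.06) fell and KDM1A (-0.14 as a value) was among the 2 not called. Readers of methylated H3K4 were split, with 4 of 12 higher, 4 lower and 4 not called (66.7% called, median -0.11). ING4 (2.09 ± 0.06) and BPTF (0.98 ± 0.09), which recruit acetyltransferase and remodelling complexes, rose, and their fellow readers ING2 (-1.05 ± 0.08) and CHD1 (-0.73 ± 0.12) fell.

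H3K9 genes showed a split between methyltransferases. Of 7 writers and cofactors, 4 rose, 2 fell and 1 was not called (median 0.19). SETDB2 (1.38 ± 0.12) and SETDB1 (0.60 ± 0.06) rose, whereas SUV39H2 (-1.28 ± 0.09) and SUV39H1 (-0.64 ± 0.08), the enzymes of pericentric heterochromatin, fell. Other H3K9 demethylases rose in 4 of 6 cases and fell in 0 (by limma, also 0 at an unadjusted p under 0.05), with KDM3B at 0.85 ± 0.09, KDM7A at 0.74 ± 0.11, KDM3A at 0.70 ± 0.06 and PHF2 at 0.69 ± 0.07 (median 0.70). These 4 rises were close in size to those of KDM5A and KDM5B and smaller than that of KDM4A in value. Of the 3 HP1 genes, which encode readers of H3K9 methylation, CBX3 fell (-0.48 ± 0.06), CBX1 rose (0.19 ± 0.05, lost without Parent 1 and without Parent 2) and CBX5 was not called.

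For H3K36, all 5 measured of 6 listed writers were called, 4 higher and 1 lower (median 0.33). SETD2, the enzyme of H3K36 trimethylation along genes, rose by 0.80 ± 0.07, NSD3 by 0.38 ± 0.06 and SETMAR by 0.33 ± 0.05, and NSD2 fell (-0.42 ± 0.05). The other H3K36 demethylases fell in 3 of 4 cases and rose in 0 (by limma, also 0 at an unadjusted p under 0.05), with 1 not called (median -0.33): RIOX1 (-0.45 ± 0.09), RIOX2 (-0.37 ± 0.06) and KDM2B (-0.28 ± 0.05). KDM2A, at 0.09, was called as higher only after quantile normalization. No histone mark was measured in this series.

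Partners of both families were counted next. Of 20 measured partners of KDM5 in SIN3, RB and NuRD complexes, 4 rose, 6 fell and 10 were not called (median -0.10). RBL2, an RB family protein of quiescent cells, rose by 1.20 ± 0.09, and the deacetylase complex genes MTA2 (-0.71 ± 0.05), HDAC2 (-0.70 ± 0.09) and BRMS1 (-0.66 ± 0.08) fell. The count of those higher was 2 without Parent 2, without IDTC 1 and without IDTC 2. Of 8 measured partners and ubiquitin ligases of KDM4, 5 fell, 1 rose and 2 were not called (median -0.34). RNF168 (-0.75 ± 0.07) and RNF8 (-0.60 ± 0.07), ligases that mark KDM4A for degradation after DNA damage, fell, as did CUL1 (-0.65 ± 0.07), the scaffold of SCF ligases, and TBL1X rose (0.44 ± 0.06).

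JmjC demethylases need 2-oxoglutarate and oxygen, and genes of both were counted. Of 11 measured enzymes that make or use 2-oxoglutarate, succinate or fumarate, 2 rose, 5 fell and 4 were not called (63.6% called, median -0.14). IDH3A, a subunit of the mitochondrial dehydrogenase that makes 2-oxoglutarate, fell by 1.22 ± 0.05, and IDH1, the cytosolic enzyme, rose by 0.38 ± 0.05. IDH2 (0.26 ± 0.07) and SDHC (-0.22 ± 0.05) lost their calls under 4 alternatives each. For SDHC, which has 2 probe sets, their mean was 1 of these (-0.16, limma adjusted p = 0.0920). Without Parent 3 and under either other scaling, 1 member of this list fell, and 1 rose without Parent 1, Parent 2, IDTC 1 or IDTC 2. Hypoxia factors and targets moved more, with 10 of 14 lower, 3 higher and 1 not called (median -0.66). PFKFB4 (-2.49 ± 0.08), SLC2A1 (-1.65 ± 0.05) and PDK1 (-1.48 ± 0.07), genes of glucose uptake and its use without oxygen, fell. EPAS1, which encodes HIF-2 alpha, rose by 2.25 ± 0.05, while HIF1A fell (-0.67). KDM4B, KDM4C and KDM5B have been described as hypoxia-induced, and beside these falls their differences were -0.17, 0.07 and 0.71.

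**Figure D4:**
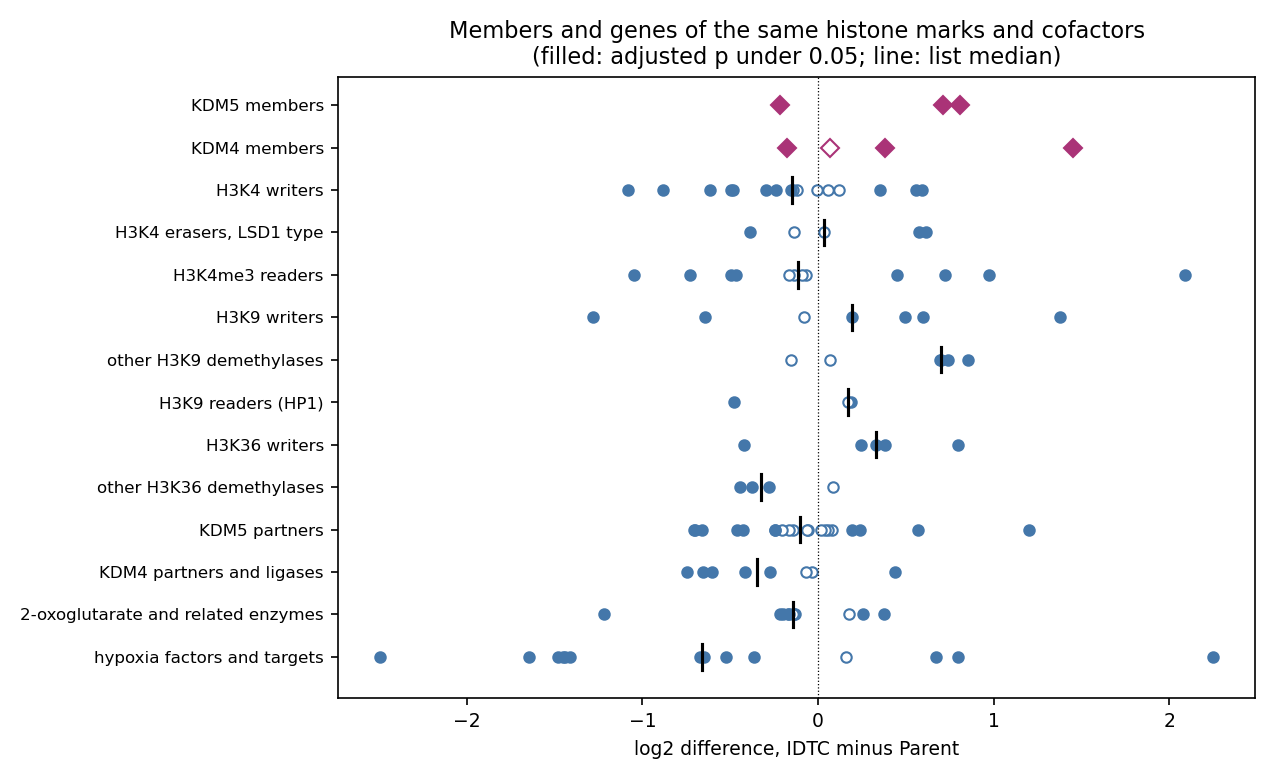
Log2 difference IDTC minus Parent (horizontal axis) of the members (diamonds) and of genes of 12 lists (circles, 1 row a list); filled marks were called at an adjusted p under 0.05 and vertical lines are list medians. The median is lowest for the hypoxia list (-0.66) and highest for the other H3K9 demethylases (0.70), and the KDM5 and KDM4 rows reach from -0.21 to 0.81 and from -0.17 to 1.45.

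The genes whose values followed KDM4A most closely over the 6 arrays were CDKN1B, the cell-cycle inhibitor p27 (Pearson r = 0.9999), the ubiquitin ligase gene CBLB (r = 0.9999) and the seryl-tRNA synthetase gene SARS1 (r = 0.9999). They rose by 1.02 ± 0.06, 1.23 ± 0.05 and 0.76 ± 0.05. For KDM5B they were the chromatin remodeller gene CHD2 (r = 0.9999), ZNF528 (r = 0.9997) and the polo-like kinase gene PLK2 (r = 0.9997), which rose by 1.00 ± 0.06, 1.63 ± 0.07 and 1.78 ± 0.07. Over 2 tight groups such an r reflects mainly that the groups differ, and 983 genes had r above 0.99 with KDM4A and 1017 with KDM5B. With KDM4C, whose IDTC arrays disagreed, it was 0 genes.

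**Figure D5:**
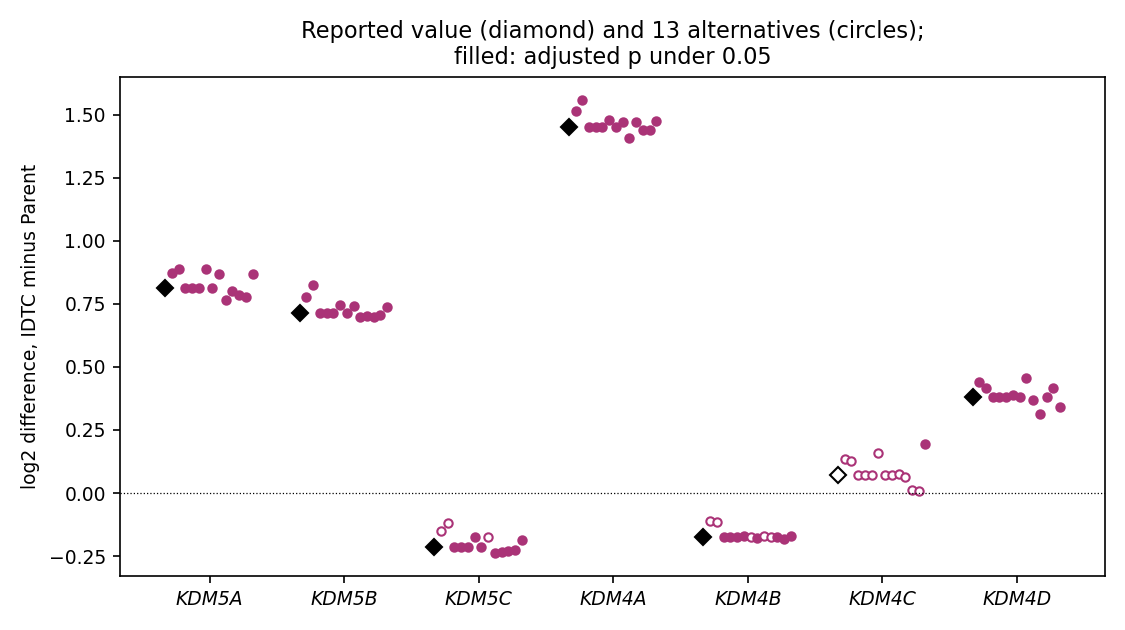
Log2 difference IDTC minus Parent (vertical axis) of each gene as reported (diamond) and under 13 alternative settings (circles); filled marks had an adjusted p under 0.05. KDM4A stays between 1.41 and 1.56, KDM5A between 0.76 and 0.89, KDM5B between 0.70 and 0.83 and KDM4D between 0.31 and 0.46, all called, while KDM5C, KDM4B and KDM4C change call.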

How the data were processed

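Expression was measured on 6 arrays of WM164 cells, 3 Parent and 3 IDTC, grouped and numbered by the sample titles. The authors deposited log2 values for 33297 probe sets, already normalized. Per the submitters' processing notes, Affymetrix Expression Console, RMA and Partek 6.6 were used, in no stated order, and no genome build is named. The platform annotation gave 1 symbol to 19460 probe sets, several to 1754 and none to 12083. The brightest probe set stood for a gene. RefSeq records matched 19429 of the 19460, with no symbol changed.

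Groups were compared by limma 3.58.1 under R 4.3.3 (lmFit, eBayes, 2-sided, all 6 arrays, no covariate), adjusted over 18417 genes, a procedure also tested on simulated data. Pairs of members used an exact permutation test. Members, lists, motifs and tests were chosen with earlier results of these data known. Named were all members, up to 4 called genes of each list with the largest absolute difference, and the 3 genes most correlated with KDM4A and KDM5B; KMT2C, SETD1A, KDM1A, CBX5, KDM2A and HIF1A were named after their values were seen, and PMEL, S100B and MITF as markers. Alternatives were other scalings, a filter on dim genes, averaged probe sets, an intensity trend, array weights, the replicate block and leaving out each array. All 7 members matched a RefSeq promoter. List genes not measured were not analysed here.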

Additional observations from a re-analysis of the deposited data

How the results depend on the processing

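The rises of KDM4A, KDM5A, KDM5B and KDM4D kept their direction and call under all 13 alternatives. The calls of the small falls did not. The number of members lower was 2 as reported, 0 after re-centring on array medians and 0 after quantile normalization, and 1 to 2 when an array was left out. KDM5C was -0.15 after re-centring, -0.12 after quantile normalization and -0.24 to -0.17 when an array was left out. KDM4B was -0.11, -0.12 and -0.18 to -0.17 in the same order. KDM4C was 0.0061 to 0.19 when an array was left out and was called only without IDTC 3. The cause of these shifts was not tested. Same-numbered arrays deviated together in 2 of 3 pairs (r = 0.31, -0.19 and 0.26), so they were not taken as paired, and not every array correlated best with its own number. With the replicate block, all genes called went from 8588 to 8855, the members lower from 2 to 1, and KDM4B (-0.17) was not called (adjusted p = 0.0511). Of 54 named genes outside the families, 51 kept their call under every alternative run, and CBX1, IDH2 and SDHC did not. Counts of some lists moved by over 1.5 times. For the enzymes of 2-oxoglutarate, succinate and fumarate, 1 to 3 fell (5 as reported) and 1 rose (2 as reported) where they moved. Of the LSD1-type erasers and corepressors 2 fell (1 as reported) with the intensity trend, with array weights and without IDTC 1. Of the HP1 genes 2 rose or, without Parent 1 or Parent 2, 0 (1 as reported). Of the KDM5 partners 2 rose (4 as reported) without Parent 2, IDTC 1 or IDTC 2, and of the other H3K36 demethylases 1 rose (0 as reported) after quantile normalization. Of the fibroblast and leukocyte markers 0 rose (1 each as reported) under 6 alternatives each, without the dimmest genes 1 fibroblast marker fell (2 as reported), and with array weights 1 endothelial and 1 keratinocyte marker was called (the latter also without IDTC 1). Averaging probe sets cannot move the differences of the members, which have 1 each. The filter on dim genes, the intensity trend and the replicate block also leave the differences as they are. These settings bear on the standard error and adjusted p only, not on direction. Dim genes such as KDM4D have no detection call, which limits their fold.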
